A study of Mus musculus with 6 samples.

Results

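Matrix metalloproteinases (Mmps) are zinc-dependent enzymes that cut proteins of the extracellular matrix, and the tissue inhibitors of metalloproteinases (Timps) block them. The genes described are 10 members of these families, 7 Mmps (Mmp2, Mmp3, Mmp8, Mmp9, Mmp13, Mmp14 and Mmp19) and 3 Timps (Timp1, Timp2 and Timp3), out of 18193 genes with a value. They were measured by 23 of the 45037 probe sets tested, those whose annotation gave a single gene symbol equal to a member's name. All 10 had at least 1 probe set.

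Most Mmps are secreted as inactive precursors and are switched on when a propeptide is removed, by other proteases or by another Mmp. A Timp binds an active Mmp in its catalytic site, so the balance of both families sets how much matrix is cut. During vessel growth endothelial cells use Mmps to open the basement membrane, and leukocytes that enter a tissue bring Mmps of their own in granules.

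The tested samples were endothelial cells from Matrigel, a gel of basement membrane proteins, made up with recombinant microfibrillar-associated protein 5 (MFAP5), a secreted protein of elastic microfibrils, and the controls came from gel made without it. All plugs had been placed intraperitoneally in Balb/c nude mice, which lack a working thymus and so most T cells. Age, sex and time in the animal, the dose of MFAP5 and the way the endothelial cells were separated are not given by the sources at hand. Each group had 3 samples, hybridized singly to 1-colour Affymetrix mouse genome arrays; the submitters call them independent without naming the animals, so p-values measure the spread between these samples, which may be technical.

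Every value below is a log2 signal centred on the probe set's median over the 6 arrays, so 0 is the middle of the 6 and a difference of -1 is a signal lower by a factor of 2. Centring removed the level, so no gene can be ranked against another and no gene can be called absent. For the same reason the presence of endothelial markers could not be checked. Of 12 such markers, among them Pecam1, Cdh5 and Kdr, limma called 0 (3 had an unadjusted p under 0.05; the smallest adjusted p was 0.0592, for Tek, at -0.75), and 9 of the 12 had a lower mean with MFAP5; without control replicate 1 it called 2, both lower. Where the groups do not overlap on a single probe set, the highest value of the lower group and the lowest value of the higher group mirror each other around 0 by construction. Control replicate 1 stood apart: across probe sets it correlated at -0.028 and 0.020 with control replicates 2 and 3, which correlated with each other at 0.69. The mean of the hybridization spike-ins, bacterial RNAs put on every array, was -0.32 on control replicate 1, against 0.64 and 0.65 on control replicates 2 and 3. It was -0.038, -0.0078 and -0.0065 on the MFAP5 arrays. Whether this has a part in the way control replicate 1 stood apart was not tested. Each array's median lay between -0.026 and 0.049. Precision is limited by the number of arrays.

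Mmp8 and Mmp9, the collagenase and the gelatinase stored in neutrophil granules, fell with MFAP5 by 1.26 and 0.87 on the log2 scale, and no member rose. Mmp3, the stromelysin, had a difference of nearly the same size as Mmp9 but did not pass the test. The other 7 members overlapped between the groups, with differences between -0.26 and 0.29. Over all genes 2.79% were called lower and 0.759% higher (limma, adjusted p under 0.05), against 2 of 10 and 0 of 10 members; 3 members had an unadjusted p under 0.05, all of them lower with MFAP5. The median log2 difference of the 10 members was -0.24, beside -0.08 for all genes, and 7 of the 10 had a negative difference, beside 65.6% of all genes.

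**Figure D1:**
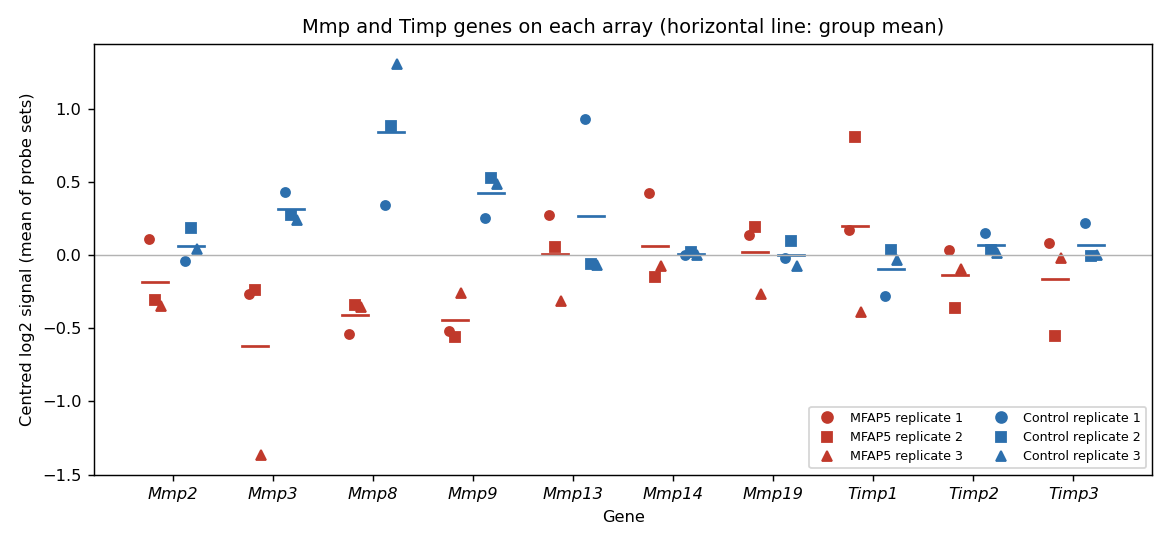
Centred log2 signal (vertical axis) of each gene (horizontal axis) on each of the 6 arrays, with MFAP5 in red on the left, control in blue on the right, a symbol per replicate and a line at the group mean. The groups are separate for Mmp3, Mmp8 and Mmp9 and overlap for the other 7 genes; MFAP5 replicate 3 is far below the others for Mmp3, and control replicate 1 is far above the others for Mmp13.

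Mmp9, or gelatinase B, cuts denatured collagen and type IV collagen. Its values were -0.52, -0.56 and -0.26 in MFAP5 replicates 1, 2 and 3, against 0.26, 0.53 and 0.48 in the controls. All 3 MFAP5 arrays lay below all 3 control arrays, and the distances within a group were smaller than the gap between the group means. The log2 difference was -0.87 ± 0.12 (SE, n = 3 each; limma adjusted p = 0.00808), a signal lower by a factor of 1.82. Both probe sets fell, 1416298_at by 0.90 and 1448291_at by 0.83 (limma adjusted p = 0.0147 and 0.0227). Without control replicate 3 the adjusted p was 0.0546, at a difference of -0.84.

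Mmp2, or gelatinase A, is the other gelatinase and is made by many stromal cells. It stood at 0.11, -0.31 and -0.35 in the MFAP5 replicates, against -0.04, 0.18 and 0.04 in the controls. MFAP5 replicate 1 lay within the range of the controls, and the other MFAP5 arrays lay below it. The log2 difference was -0.24 ± 0.14 (SE, n = 3 each; limma adjusted p = 0.377), and its 2 probe sets gave -0.28 and -0.20.

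Mmp8, or neutrophil collagenase, cuts fibrillar collagens. Its only probe set, 1449366_at, gave -0.54, -0.34 and -0.36 in the MFAP5 replicates, against 0.34, 0.88 and 1.31 in the controls. The MFAP5 arrays were close together (SD 0.11), while the controls were spread (SD 0.48), with control replicate 1 the lowest of them. The log2 difference was -1.26 ± 0.22 (SE, n = 3 each; limma adjusted p = 0.0177), a signal lower by a factor of 2.39. The adjusted p was 0.0679 without MFAP5 replicate 1 and 0.0923 without control replicate 2, and without control replicate 1, the array that stood apart, the difference was -1.51.

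Mmp13, the other collagenase of the set, is made in the mouse by stromal cells and hypertrophic cartilage. It read 0.27, 0.06 and -0.32 in the MFAP5 replicates, against 0.93, -0.06 and -0.07 in the controls. Control replicate 1 was the highest of the 6 arrays and the other controls lay among the MFAP5 arrays. The log2 difference of -0.26 ± 0.27 (SE, n = 3 each; limma adjusted p = 0.617) became 0.07 when control replicate 1 was left out.

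Mmp3, or stromelysin 1, cuts proteoglycans, laminin and fibronectin and activates other Mmp precursors. Its values were -0.27, -0.24 and -1.37 in the MFAP5 replicates, against 0.43, 0.27 and 0.24 in the controls. The groups did not overlap, but MFAP5 replicate 3 was far below the other arrays of its group. The log2 difference was -0.94 ± 0.27 (SE, n = 3 each; limma adjusted p = 0.111), and it was -0.57 without MFAP5 replicate 3. With array weights, which count less consistent arrays less, Mmp3 was at -0.84 with an adjusted p = 0.0389. Of the 10 members 3 had all MFAP5 values below all control values, which held for 17.8% of all genes, and 0 had all of them above, which held for 6.51%.

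Mmp14, a membrane-bound Mmp that activates the precursor of Mmp2 with the help of Timp2, differed by 0.06 ± 0.15 (SE, n = 3 each; limma adjusted p = 0.852). The MFAP5 replicates had 0.42, -0.15 and -0.08, and the controls lay within 0.02 of 0 in the mean of the probe sets. The single probe sets did not: control replicate 1 was at 0.10, -0.16 and 0.05 on 1416572_at, 1440920_at and 1448383_at. Its probe sets disagreed: 1416572_at and 1448383_at were at 0.20 each and 1440920_at at -0.22, and in none did the groups separate. MFAP5 replicate 1 was the highest array in all 3 of them.

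Mmp19, a secreted Mmp of broad specificity, differed by 0.02 ± 0.14 (SE, n = 3 each; limma adjusted p = 0.950). The MFAP5 replicates had 0.13, 0.19 and -0.26, against -0.02, 0.10 and -0.07 in the controls. Its 2 probe sets gave -0.11 and 0.15, and 2 of the MFAP5 arrays were above all controls while the remaining one was below them.

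Timp1, the inhibitor that also binds the precursor of Mmp9, had the largest positive difference of the members, 0.29 ± 0.26 (SE, n = 3 each; limma adjusted p = 0.560). Its single probe set gave 0.17, 0.81 and -0.39 in the MFAP5 replicates, against -0.28, 0.03 and -0.03 in the controls. MFAP5 replicates 1 and 2 were above every control and replicate 3 was below every control. Without MFAP5 replicate 2 the difference was -0.01.

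Timp2, which binds the precursor of Mmp2, was read by 6 probe sets. Its mean values were 0.04, -0.36 and -0.09 in the MFAP5 replicates, against 0.15, 0.03 and 0.02 in the controls, a difference of -0.21 ± 0.12 (SE, n = 3 each; limma adjusted p = 0.392). Of the 6 probe sets 5 had a negative difference and the range was -0.35 to 0.02. None passed the limma test; the smallest adjusted p was 0.197, for 1460287_at at -0.31, where the groups did not overlap.

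Timp3, the inhibitor that is bound to the matrix, had 4 probe sets that disagreed in size. Probe set 1419088_at gave -0.20, -0.58 and -0.34 in the MFAP5 replicates, against 0.65, 0.20 and 0.38 in the controls, and fell by 0.78 ± 0.16 on the log2 scale (SE, n = 3 each; limma adjusted p = 0.0373). The other 3 probe sets lay between -0.08 and -0.04, with adjusted p of 0.850 to 0.935, and in each of them MFAP5 replicate 2 was the lowest array and the groups overlapped. The platform annotation gives the same accession for all 4. By gene, Timp3 differed by -0.23 ± 0.17 (SE, n = 3 each; limma adjusted p = 0.475), and it passed only when the probe set with the largest SD stood for it (adjusted p = 0.0402). The call of 1419088_at was kept under 4 of 12 alternatives, and was lost with quantile normalization (adjusted p = 0.0657) and with array median centring (adjusted p = 0.0529).

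**Figure D2:**
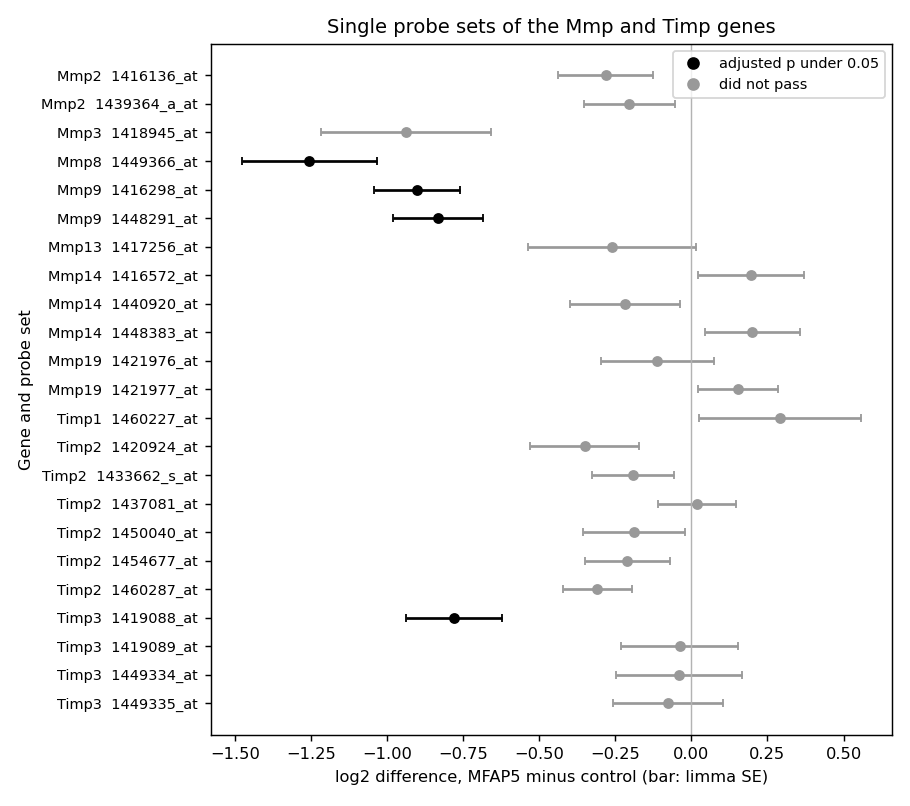
log2 difference between MFAP5 and control (horizontal axis; bars are limma SEs, n = 3 each) of each of the 23 probe sets, grouped by gene down the vertical axis, in black where the adjusted p is under 0.05. The probe sets in black are those of Mmp8 and Mmp9 and 1 of 4 of Timp3, and those of Mmp14 and Mmp19 lie on both sides of 0.

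By probe set, 4 of 23 were lower, 1 for Mmp8, 2 for Mmp9 and 1 for Timp3, and 0 were higher (limma, adjusted p under 0.05; 6 and 0 at an unadjusted p under 0.05). Over all probe sets 1.72% were called lower and 1.56% higher. MFAP5 values were below all control values in 7 of the 23, which held for 14.2% of all probe sets. Probe sets of 1 gene read the same RNA and are not separate evidence. Without MFAP5 replicate 1, control replicate 2 or control replicate 3 limma called 0 of the 23, with 10, 5 and 5 of them at an unadjusted p under 0.05. Without MFAP5 replicate 2 it called 1, and without MFAP5 replicate 3 it called 2, each a probe set of Mmp9.

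The spread within groups differed between members. Within MFAP5 the SD ran from 0.11 for Mmp8 to 0.64 for Mmp3, and within the controls from 0.01 for Mmp14 to 0.57 for Mmp13. The Mmp14 value is the SD of the mean of 3 probe sets, whose own control SDs were 0.09, 0.19 and 0.08. Mmp13 has 1 probe set, so these SDs are not of like quantities. For 8 of the 10 members the SD was larger among the MFAP5 arrays, which held for 41.1% of all genes. MFAP5 replicate 3 was the lowest of its group for 5 members and replicate 2 for 4, while MFAP5 replicate 1 was the highest for 5.

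An enzyme and its partner inhibitor can be compared within an array. The Mmp9 value minus the Timp1 value was -0.69, -1.37 and 0.13 in the MFAP5 replicates, against 0.53, 0.49 and 0.52 in the controls. All MFAP5 arrays were lower, with a difference of -1.16 (exact permutation test, two-sided, p = 0.1, the smallest p that 3 against 3 allows; adjusted p = 0.2 over 2 pairs). For Mmp2 minus Timp2 the values were 0.07, 0.05 and -0.25 in the MFAP5 replicates, against -0.19, 0.15 and 0.02 in the controls, a difference of -0.04 (exact permutation test, two-sided, p = 0.7; adjusted p = 0.7). Both pairs were chosen after the values were seen, and such a contrast shows unequal change of the signals, not enzyme activity.

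Mmp3, Mmp8 and Mmp13 are neighbours in the mouse genome. In the RefSeq table (GRCm38.p6) they belong to a run of 10 Mmp genes on chromosome 9 with no other protein-coding gene between them, in the order Mmp13, Mmp12, Mmp1b, Mmp3, Mmp1a, Mmp10, Mmp8, Mmp27, Mmp20 and Mmp7. Of the 9 that were measured, limma called only Mmp8, and 6 had a negative difference. Mmp12, a macrophage elastase gene, was at -0.93 ± 0.21 (SE, n = 3 each; limma adjusted p = 0.0546) with values of -0.83, -0.61 and -0.11 in the MFAP5 replicates, against 0.74, 0.11 and 0.38 in the controls. Mmp1a, Mmp10 and Mmp7 lay between 0.01 and 0.06, and Mmp1b and Mmp20 were at -0.12 and -0.23, none past the threshold.

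Many Mmp genes are known to be driven through a site for AP-1, the dimer of Fos and Jun proteins, close to the start of transcription. The letters TGANTCA, which read the same on both strands, were searched in the 250 bases before each listed start, with N any base. They were found in 6.75% of the 32851 promoters of the RefSeq table, and for 8 of the 10 genes of the run in at least 1 listed promoter. A promoter was listed for 7 of the 10 members, and 2 of these 7, Mmp3 and Mmp13, held the letters. Mmp2, Mmp9 and Mmp19 were not searched. The 150 bases before the start are shown 5′ to 3′ for the 3 neighbouring members (GRCm38.p6, plus strand), with a match in capitals. Mmp3 and Mmp13 have 1 match each and Mmp8 has none in the window. Of the 8 genes of the run with the letters, Mmp3 and Mmp12 were at -0.94 and -0.93. Mmp13, Mmp20 and Mmp1b were at -0.26, -0.23 and -0.12, and Mmp1a, Mmp7 and Mmp10 at 0.01, 0.04 and 0.06. Mmp8, without the letters, was at -1.26. A tie between the letters and the differences was not tested. The windows are chr9:7445672-7445821 for Mmp3, chr9:7272364-7272513 for Mmp13 and chr9:7558279-7558428 for Mmp8.
Mmp3: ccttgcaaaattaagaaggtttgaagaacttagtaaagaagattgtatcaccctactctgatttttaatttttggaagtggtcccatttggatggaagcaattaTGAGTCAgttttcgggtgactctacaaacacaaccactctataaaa
Mmp13: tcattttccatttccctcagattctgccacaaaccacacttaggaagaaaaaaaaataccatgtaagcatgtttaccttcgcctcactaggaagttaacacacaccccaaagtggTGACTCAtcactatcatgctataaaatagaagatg
Mmp8: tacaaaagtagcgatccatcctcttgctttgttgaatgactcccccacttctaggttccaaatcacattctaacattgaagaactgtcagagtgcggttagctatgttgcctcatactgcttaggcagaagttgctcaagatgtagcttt
The match starts 46 bases before the start of transcription in Mmp3 and 35 bases before it in Mmp13. A match describes the letters and does not show that a factor binds there.

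The wider matrix protease system was read from 5 lists with 60 genes, of which 53 were measured, and 4 of these rose and 3 fell. Among 11 other Mmps limma called 0 (1 at an unadjusted p under 0.05, Mmp12), and among 3 other inhibitors it called 0 (1 at an unadjusted p under 0.05, Timp4 at -0.31). Reck, a membrane-anchored inhibitor, was at 0.10, and Tfpi2, a secreted protease inhibitor, at 0.50. None of the 7 calls was made without control replicate 2 or without control replicate 3, where 19 and 18 of the 53 had an unadjusted p under 0.05. Without MFAP5 replicate 1 Plat, Il1a, Col4a2 and Fn1 were called. Il1a was not called without MFAP5 replicate 2, nor Jun without MFAP5 replicate 3, and with the level of the hybridization spike-ins (RNAs of bacterial genes put on every array as a control) as a covariate Fn1 and Osm were called.

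Of 12 activators and partners 1 rose and none fell. Plat, the tissue plasminogen activator that endothelial cells release, stood at 1.07, 0.33 and 0.52 in the MFAP5 replicates, against -0.22, -0.56 and -0.57 in the controls, a log2 difference of 1.09 ± 0.19 (SE, n = 3 each; limma adjusted p = 0.0203). Its product plasmin can activate Mmp precursors. Plau, the urokinase gene, was at -0.43 and did not pass. Lcn2, which encodes a lipocalin that binds Mmp9, read -3.27, -2.80 and -0.43 in the MFAP5 replicates, against 0.43, 0.44 and 0.47 in the controls. Its difference of -2.62 ± 0.61 (SE, n = 3 each) had a limma adjusted p = 0.0572, with MFAP5 replicate 3 much closer to the controls. The mean of the adipocyte markers described below was also nearest to the controls in that replicate, at -3.72, -2.58 and -1.02 in MFAP5 replicates 1, 2 and 3. Which cells the Lcn2 signal came from was not tested. Elane, the neutrophil elastase gene, was at -0.39 (adjusted p = 0.114).

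Of 16 regulators of Mmp transcription 2 rose and 1 fell. Jun, a subunit of AP-1, rose by 0.68 ± 0.14 and Osm, the cytokine oncostatin M, by 1.08 ± 0.21 (SE, n = 3 each; limma adjusted p = 0.0367 and 0.0263), and Il1a, interleukin 1 alpha, fell by 0.65 ± 0.12 (adjusted p = 0.0261). Jun was at 0.42, 0.12 and 0.49 in the MFAP5 replicates, against -0.12, -0.44 and -0.45 in the controls, so the groups did not overlap. Fosb, Fosl2 and Junb, other AP-1 subunits, were at 1.30, 0.47 and 0.69 without passing the threshold (adjusted p = 0.0572, 0.0696 and 0.0884). The remaining subunits Fos, Jund and Fosl1 were at 0.27, 0.33 and -0.14 and did not pass either. The median of the list was 0.30.

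Of 11 matrix substrates 1 rose and 2 fell. Col4a1 and Col4a2, the chains of the main type IV collagen of basement membranes, fell, with differences of -2.22 ± 0.41 and -2.14 ± 0.33, and Fn1, fibronectin, rose by 0.83 ± 0.14 (SE, n = 3 each; limma adjusted p = 0.0242, 0.0110 and 0.0153). Col4a1 was at -2.07, -2.43 and -0.52 in the MFAP5 replicates, against 0.57, 0.53 and 0.56 in the controls, and MFAP5 replicate 3 lay nearest to the controls, as for Lcn2. The fibrillar collagen genes Col1a1, Col1a2 and Col3a1 were at 0.28, 0.36 and 0.27 and did not pass.

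**Figure D3:**
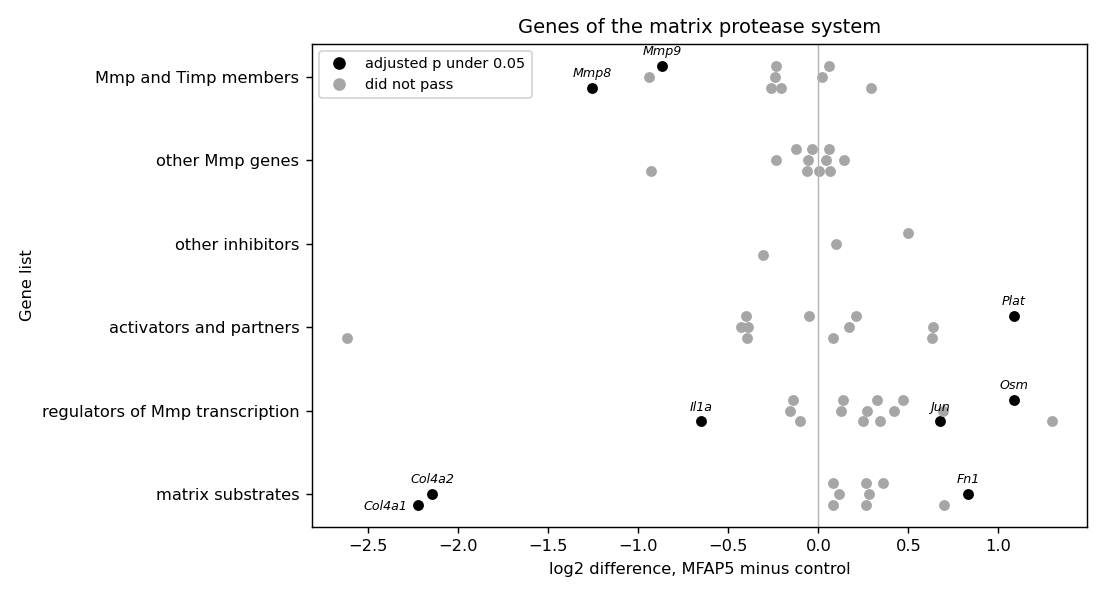
log2 difference between MFAP5 and control (horizontal axis) of each measured gene of the Mmp and Timp members and of the 5 lists (vertical axis), 1 point per gene, in black with its name where the adjusted p is under 0.05. Mmp8, Mmp9, Il1a, Col4a1 and Col4a2 are the named genes left of 0, and Plat, Jun, Osm and Fn1 are those right of it; points are spread vertically only to be seen.

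Markers of other cells were read on the same arrays. Mmp8 and Mmp9 are carried by neutrophils. Of 10 measured neutrophil markers without the Mmps 2 fell, S100a8 at -1.63 and S100a9 at -1.22, and the list's mean signal ran from -0.58 to -0.21 over the MFAP5 arrays, against 0.05 to 0.38 over the control arrays. The other 8 did not pass: Lcn2, given above, was at -2.62, and Camp and Ltf, of the granules, were at -0.35 and -0.37. Elane and Cxcr2 were at -0.39 and -0.24, Ngp and Csf3r at -0.03 and 0.06, and Mpo at 0.28. Of the 10 markers 8 had a negative difference, and 4 had an unadjusted limma p under 0.05. Over the 7 markers other than Lcn2, S100a8 and S100a9, a split made after the values were seen, the means overlapped, at -0.15, 0.02 and -0.04 in the MFAP5 replicates, against -0.15, 0.24 and 0.18 in the controls. Both calls were kept whichever sample was left out, and 4 of the 10 were called without control replicate 1, all lower. Ly6g and Retnlg of this list were not analysed here. Of 12 macrophage markers 1 fell, the scavenger receptor gene Marco, at -1.59, and the mean ran from -0.16 to 0.04 with MFAP5, against -0.004 to 0.16 in the controls; without control replicate 1, 2 of the 12 were called lower and 2 higher. Of the 12, 5 had a positive difference, among them Itgam at 0.36 and C1qa at 0.23, which did not pass. In bulk samples fewer cells of a type and less RNA per cell cannot be told apart, and the part of these cells in the lower Mmp8 and Mmp9 was not tested.

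Of 10 measured adipocyte markers 9 fell, and their mean ran from -3.72 to -1.02 over the MFAP5 arrays, against 1.11 to 1.31 over the control arrays. Without control replicate 2 or 3 limma called 5 of them. Of 10 fibroblast markers 1 fell, Pi16, at -0.93, and with samples left out in turn it was called only without MFAP5 replicate 1 or control replicate 1. The other way, 8 of the 10 had a positive difference, such as Col1a2 and Dcn at 0.36 each, which did not pass. Their list mean ran from -0.10 to 0.13 over the MFAP5 arrays, against -0.14 to -0.00065 over the control arrays, and without control replicate 1 limma called 3 higher and 1 lower. Of 8 pericyte and smooth muscle markers 1 fell (Kcnj8, at -0.90, lost without control replicate 2 or 3). Among 9 mesothelial and 5 lymphocyte markers limma called 0, with 1 of each at an unadjusted p under 0.05. Because the values are centred, which defining markers were near background could not be read. The beta-actin control probe sets at the 3′ end minus those at the 5′ end, a measure of RNA quality, gave 0.14, 0.08 and 0.04 in the MFAP5 replicates on the log2 scale, against -0.005, -0.05 and -0.03 in the controls (exact permutation test, two-sided, p = 0.1). All MFAP5 values were above all control values, and this is the smallest p that 3 against 3 allows. The same measure of Gapdh overlapped (p = 0.4 by the same exact test). The part of either in the Mmp results was not tested. Adjusted for the spike-in level, Mmp8 and Mmp9 were at -0.99 and -0.78 and passed (limma adjusted p = 0.0248 and 0.0297). That level hardly differed among the MFAP5 arrays, so the adjustment rests mainly on control replicate 1 against control replicates 2 and 3. It cannot separate the spike-in level from anything else that set control replicate 1 apart.

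**Figure D4:**
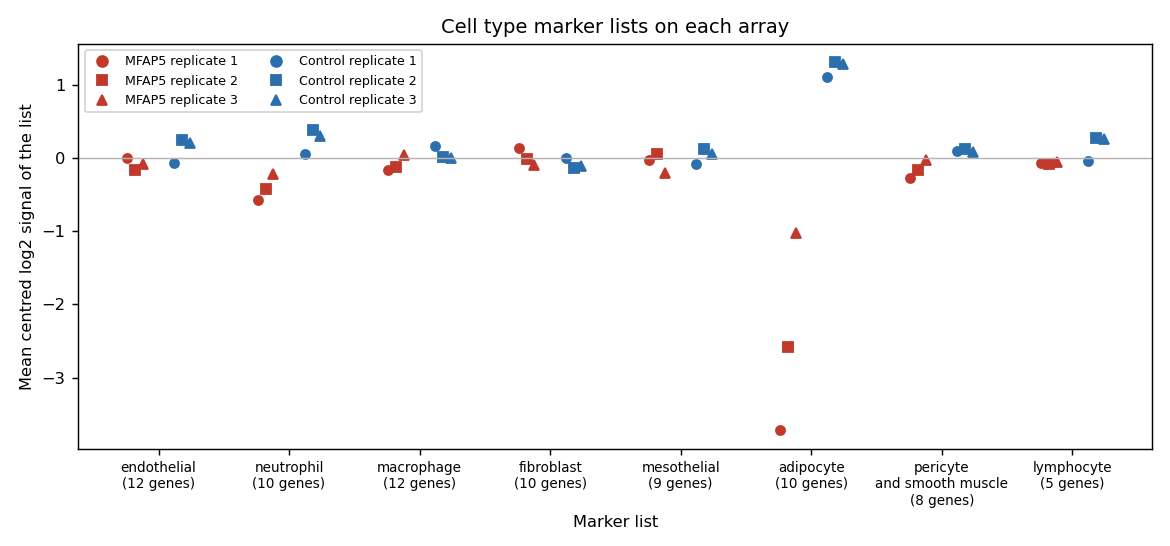
Mean centred log2 signal (vertical axis) of each list of cell type markers (horizontal axis, with the number of genes measured) on each array, MFAP5 in red on the left and control in blue on the right. The groups are separate for the adipocyte and neutrophil lists, with the MFAP5 arrays lower, and also for the pericyte and lymphocyte lists, by smaller distances.

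The genes whose values were most like those of Mmp9 over the 6 arrays, by the root mean square of the differences, were Coq5 (0.059), Dgat1 (0.065), Aldh3b2 (0.066), Uck1 (0.070) and Gpam (0.075). For Mmp8 they were Proca1 (0.15), Hdhd3 (0.18), Itga7 (0.18), Ucp1 (0.19) and Hspb6 (0.19). Genes chosen for this likeness share the difference of the member by construction. Dgat1 and Gpam encode enzymes of triglyceride synthesis and Ucp1 the uncoupling protein of brown fat. They were singled out after the lists were seen, and whether the nearest genes share a function was not tested.

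Across the 13 alternatives Mmp9 passed in 11 and Mmp8 in 10, with differences of -0.96 to -0.78 and -1.57 to -0.99. Both missed the threshold with the unmoderated statistic (adjusted p = 0.131 and 0.212), which called 1 of all 18193 genes.

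**Figure D5:**
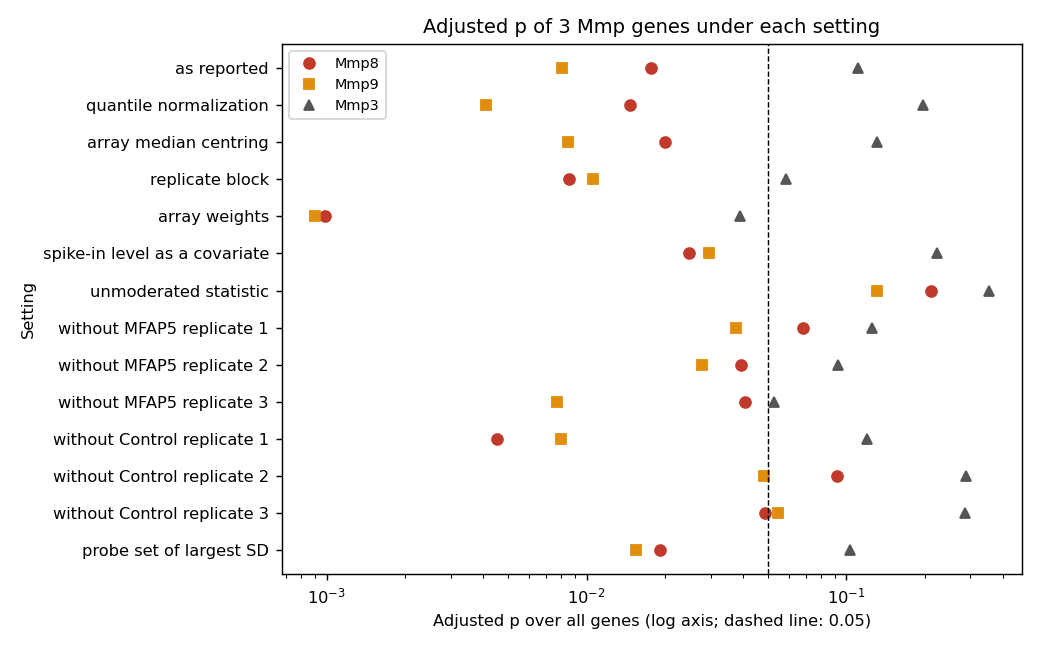
Adjusted p over all genes (horizontal axis, log scale, dashed line at 0.05) of Mmp8, Mmp9 and Mmp3 under the reported setting and each of the 13 alternatives (vertical axis). Mmp8 and Mmp9 lie left of the line in 10 and 11 of the alternatives and Mmp3 in 1, the array weights.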

How the data were processed

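Biotin-labelled cRNA made from total RNA was hybridized to 1-colour Affymetrix arrays, per the labels' protocols. The authors used MAS5, per the submitters' processing notes; its scaling and later steps are not given by the sources at hand. Deposited values were taken as log2 signals, from their range; a natural log would make every printed difference too small. Higher was taken as more signal. No filter on dim probe sets was possible on centred values.

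Of 45101 probe sets 64 array controls were left out; 34945 of the rest had 1 symbol, 932 several and 9160 none listed. Symbols were updated by Entrez identifier through RefSeq (GRCm38.p6; 34741 matched), and the probe sets of a gene were averaged. Groups were compared with limma 3.58.1 (R 4.3.3; lmFit and eBayes without trend, two-sided, Benjamini-Hochberg over all genes or all probe sets, threshold 0.05). Differences are MFAP5 minus control. Single values were compared by exact permutation. The procedure was tested on simulated data. The simulation had independent noise and no array that stood apart, unlike these data, so it does not bear on the single calls. Sequences came from RefSeq.

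The members and lists were chosen with earlier results of these data known. All members were named, with list genes past the threshold and the 3 of smallest p where none was, and the 5 genes nearest to each called member. Genes beyond these (such as Plau, the AP-1 subunits, Lcn2 and the collagens named as not passing) and single markers were chosen after their values were seen. Alternatives were quantile normalization, array median centring, the replicate block, array weights, the spike-in covariate, no moderation, the probe set of largest SD and leaving out each sample.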

Additional observations from a re-analysis of the deposited data

How the results depend on the processing

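The count of members called was 2 in the reported fit and 0 with the unmoderated statistic (2 at an unadjusted p under 0.05); leaving out single samples gave 1 to 2. It was 2 with quantile normalization, array median centring and the spike-in covariate, and 3 with array weights and with the probe set of largest SD. The count of member probe sets, 4, was 0 with the unmoderated statistic (5 at an unadjusted p under 0.05) and 0 to 4 with single samples left out. The count of other matrix protease genes, 7, was 25 with array weights, 2 with the spike-in covariate and 0 with the unmoderated statistic (18 at an unadjusted p under 0.05), and 0 to 14 with single samples left out; over all genes limma called 508 lower and 138 higher, against 2879 and 1125 with array weights, 316 and 48 with the spike-in covariate and 1 and 0 unmoderated.

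Of 130 values of single members under an alternative 114 kept direction and side of the threshold, and 9, none of them past it, changed sign. Of the 114, Mmp8 gave 10 and Mmp9 gave 11. The rest were members not called in the reported fit that stayed uncalled. For members with 1 probe set, the probe set of largest SD gave the same difference by construction. Mmp13 was at 0.018 with array weights and ran from -0.43 to 0.069 with single samples left out. Mmp14 was at -0.22 with the probe set of largest SD and ran from -0.12 to 0.17 with single samples left out. Mmp19 was at -0.11 with that probe set and ran from -0.066 to 0.16, and Timp1 ran from -0.013 to 0.58. The cause of these changes was not tested.

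With the replicate number as a block 2 members passed, as in the reported fit (Mmp8 and Mmp9). The same 4 member probe sets passed too, among them 1419088_at of Timp3, and 9 of the other matrix protease genes. Same-numbered samples deviated together at correlations across genes of 0.18, 0.056 and 0.072. The labels do not tie the numbers to shared animals, and whether same-numbered samples share more than a number is not known. The reach of these data is limited by 3 arrays per group and by the missing signal level.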
